A study of Mus musculus with 46 samples.

Results

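The nuclear-encoded subunits of the oxidative phosphorylation complexes were examined in mouse bone marrow-derived macrophages, the phagocytes grown from marrow precursors in culture. The members were the genes whose symbol starts with Nduf followed by a, b, c, s or v and a digit, with Uqcr, with Cox4 to Cox8, or with Atp5. This gave 84 genes of the 25624 listed in any of the 4 expression tables: 37 of complex I, 8 of complex III, 20 of complex IV and 17 of complex V. The rule also took Atp5s and Atp5sl, which share the name of the ATP synthase but are not subunits of it. Of the 84 members, 78 were listed in all 4 tables. The genes of the mitochondrial genome were not analysed here.

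The study sequenced RNA from 46 labelled samples, in 23 groups of 2, across 4 experiments, all with a stranded kit for messenger RNA. The labels name total RNA as the molecule for experiments 1 and 3 and for 0 and 4 hr of experiment 2, and polyA RNA for experiment 4 and for 1 hr of experiment 2. Experiments 1 and 4 used wild-type cells treated with lipid A, the membrane anchor of bacterial lipopolysaccharide (LPS) that engages Toll-like receptor 4. Experiment 1 held controls at 0, 1 and 4 hr, and cells given ACBI1, BRM014 or BRDK98 at 4 hr. Experiment 4 held controls at 0, 20 and 60 min and the 3 compounds at 20 and 60 min. Experiment 2 held Arid1a f/f controls at 0, 1 and 4 hr of LPS, and Arid1a-/- cells at 1 and 4 hr. In experiment 3, Pbrm1 f/f controls were taken before lipid A and after 4 hr of it, and Pbrm1-/- cells after 4 hr.

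All of these perturbations act on SWI/SNF, the ATP-driven complex that moves nucleosomes. ACBI1 is a degrader of the SMARCA2, SMARCA4 and PBRM1 proteins, and BRM014 inhibits the ATPase of SMARCA2 and SMARCA4. For BRDK98 the labels give a code name. The labels give no compound dose, no Cre driver and no statement that replicates came from separate cultures or mice, so each p-value measures the spread between these libraries, which may be technical. Perturbed cells without a stimulus were not analysed here.

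Complex I passes electrons from NADH to ubiquinone, complex III from ubiquinol to cytochrome c, and complex IV from cytochrome c to oxygen. All 3 pump protons, and complex V, the ATP synthase, uses the gradient to make ATP. Macrophages activated through Toll-like receptor 4 are known for a shift from respiration towards glycolysis, with nitric oxide, itaconate and a remodelled complex I and complex IV as described routes. The nuclear genes of these complexes are known for promoters that hold sites for NRF1, for the ETS factor GABP and for YY1.

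Promoters are shown for a member that rose, a member higher in Arid1a-/- cells, a member lower in those cells and a member that fell with lipid A, so that the sequence can be read beside the results that follow. Each run covers 250 bases before the start of the RefSeq gene in GRCm38.p6 (mm10), 5′ to 3′ on the strand of the gene. The intervals are chr6:24527691-24527940 for Ndufa5, chr2:36049339-36049588 for Ndufa8, chr4:116075071-116075320 for Uqcrh and chr2:174464102-174464351 for Atp5e, all on the minus strand. Capitals mark the NRF1 motif, read as GCGCA, any base, GCGC on either strand, in the promoters of Ndufa5 and Ndufa8. In those of Uqcrh and Atp5e they mark the ETS motif CCGGAAG, here on the opposite strand.
Ndufa5: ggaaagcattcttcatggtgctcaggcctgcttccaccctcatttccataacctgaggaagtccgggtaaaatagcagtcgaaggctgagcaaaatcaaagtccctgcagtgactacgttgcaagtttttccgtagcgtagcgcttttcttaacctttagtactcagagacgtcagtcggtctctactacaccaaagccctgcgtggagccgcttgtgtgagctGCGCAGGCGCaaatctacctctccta
Ndufa8: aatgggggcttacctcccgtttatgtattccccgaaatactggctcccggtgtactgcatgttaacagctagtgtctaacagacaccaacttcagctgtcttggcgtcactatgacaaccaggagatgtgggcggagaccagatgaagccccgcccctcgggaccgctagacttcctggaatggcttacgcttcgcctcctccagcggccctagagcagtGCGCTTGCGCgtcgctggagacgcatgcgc
Uqcrh: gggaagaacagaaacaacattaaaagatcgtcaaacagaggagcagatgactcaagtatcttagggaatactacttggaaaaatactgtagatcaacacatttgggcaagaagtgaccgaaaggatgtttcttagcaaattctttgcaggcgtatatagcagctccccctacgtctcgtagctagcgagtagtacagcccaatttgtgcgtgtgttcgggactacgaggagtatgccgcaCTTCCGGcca
Atp5e: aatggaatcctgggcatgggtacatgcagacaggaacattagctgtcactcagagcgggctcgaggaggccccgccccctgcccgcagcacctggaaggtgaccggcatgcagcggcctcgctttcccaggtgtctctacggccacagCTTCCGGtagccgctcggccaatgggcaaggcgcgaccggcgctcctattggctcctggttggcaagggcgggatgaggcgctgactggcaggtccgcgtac

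A RefSeq promoter of 300 bases, from 250 before to 50 after the start, was matched for 67 of the 84 members. The NRF1 motif, searched on both strands, was in 14 of these 67 (20.9%) and in 6.5% of all 18939 promoters. The ETS motif was in 15 (22.4%, against 11.9%), and the YY1 motif AAGATGGCG was in 8 (11.9%, against 1.9%). The SP1 motif GGGCGG was in 26 (38.8%, against 45.7%). At least 1 of the NRF1, ETS and YY1 motifs was in 32 member promoters (47.8%) and in 18.4% of all promoters. These shares describe letters in a window and say nothing of whether a factor is bound there. The printed promoters are examples, and whether a motif goes with the direction of change was not tested. Among other members that fell with lipid A, some promoters hold a motif, such as Ndufs8 (ETS), Ndufa6 (NRF1) and Ndufs7 (YY1). Others, such as those of Ndufa7, Ndufv3, Ndufb8, Ndufv1, Cox5a and Uqcr10, hold none of the NRF1, ETS and YY1 motifs. The promoter of Ndufa10, higher in Arid1a-/- cells, also holds none of them.

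Levels are given in TPM as deposited. TPM (a transcript's share of all transcripts) divides reads by exon length and by a total, so when a few transcripts rise steeply, all others fall on this scale. At 4 hr of lipid A in experiment 1 the median of all 11531 tested genes fell by 0.84 on the log2 scale. Each library was therefore also divided by its median ratio to the average library of its experiment, called median-scaled TPM here. A member is said to rise or fall only where limma called it, at a Benjamini-Hochberg adjusted p under 0.05 over all tested genes, on both scales in the same direction. Of the members, 73, 76, 72 and 74 passed the filter of 1 TPM in at least 2 libraries in experiments 1 to 4.

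Exonic reads per library ranged from 7015045 to 21283798 (experiment 1), 9290667 to 12045833 (experiment 2), 18040550 to 25175538 (experiment 3) and 9869546 to 27527886 (experiment 4). The column for the 4 hr control replicate 2 of experiment 1 repeats replicate 1, so that group has 1 library and 45 libraries were used. Every SE and p-value for a contrast with that library takes its spread from the other groups of experiment 1, on the assumption that the lone library varies as they do. The markers of macrophages (10 genes) summed to 16658 to 52947 TPM in every library, and all 6 lymphocyte markers were under 1 TPM throughout. In such bulk samples fewer cells of a type and less RNA per cell cannot be told apart. The 7 stromal and endothelial markers summed to 154 TPM in 1 hr control replicate 1 of experiment 1, from Col1a1 (56.2), Col1a2 (48.8) and Col3a1 (36.7). The 10 granulocyte markers summed to 6.60 to 53.0 TPM in experiments 1 and 2 and to 281 to 525 in experiments 3 and 4, with Ly6g under 1 TPM in every library.

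Members have short transcripts, with a median exon length of 654 to 663 bases against 2614 to 2652 for all tested genes, so a library that differs by transcript length moves them together. BRM014 replicate 1 at 60 min was such a library. Its genes of up to 800 bases lay 0.43 above the experiment mean on the log2 scale of median-scaled TPM, its genes over 3000 bases lay 0.26 below, and the members lay 0.56 above. In BRM014 replicate 2 the members lay 0.03 above. Arid1a-/- replicate 1 at 1 hr lay 0.17 below for genes over 3000 bases and 0.21 above for the members, whereas the members of replicate 2 lay 0.12 below (-0.12).

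**Figure D1:**
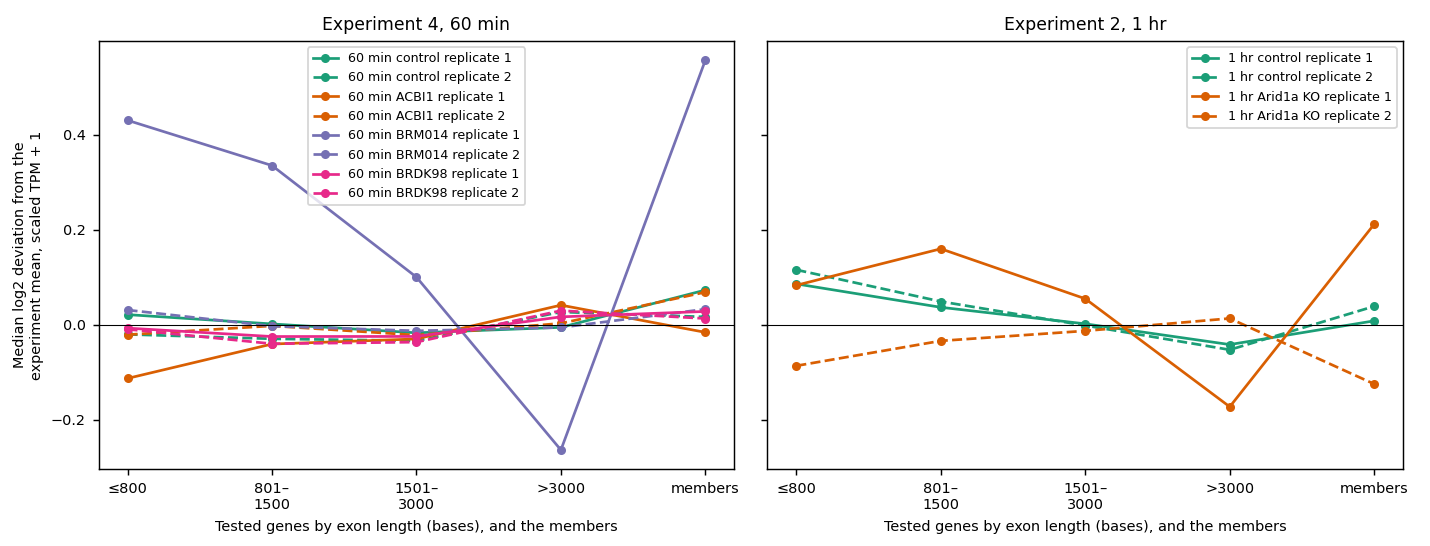
Median log2 deviation of each library from its experiment's mean (vertical axis, log2 of median-scaled TPM + 1) for tested genes in 4 classes of exon length in bases and for the members; each line is 1 library, solid for replicate 1 and dashed for replicate 2. BRM014 replicate 1 at 60 min runs from 0.43 for the shortest genes to -0.26 for the longest, with its members at 0.56, while the other 60 min libraries stay near 0.

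In unstimulated cells the members formed a broad range of levels, with a few core subunits on top and the tissue-restricted isoforms near 0. Cox4i1, a core-proximal subunit of complex IV, was the highest member in all 4 experiments, at mean levels of 657, 782, 459 and 504 TPM in experiments 1 to 4. The catalytic beta subunit of ATP synthase, Atp5b, stood at 321, 420, 289 and 249 TPM, and its alpha partner Atp5a1 at 291, 371, 265 and 252 TPM. Cox6b1 (274, 460, 288 and 284 TPM) and Cox6a1 (246, 307, 231 and 175 TPM) were in the same range. The complex I core subunits were lower: Ndufs1, which carries iron-sulfur clusters of the NADH arm, stood at 38.2, 43.3, 34.4 and 31.0 TPM.

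Where a subunit has a ubiquitous and a tissue-restricted isoform, the ubiquitous one had the higher level. Cox4i2 never passed 1.59 TPM and was at 0 in 18 of 45 libraries. The heart and muscle form Cox6a2 stood at 1.07, 4.18, 2.82 and 1.82 TPM in unstimulated cells, and its highest library held 5.43 TPM. Cox7a1 stood at 5.29, 13.1, 3.74 and 3.51 TPM, against 100, 139, 103 and 86.6 TPM for Cox7a2 and 144, 94.1, 92.4 and 90.5 TPM for Cox7a2l, the factor that joins complexes III and IV. The testis form Cox6b2 stayed at or under 2.52 TPM and was at 0 in 7 libraries. Cox8b reached 0.47 TPM in 1 library and was at 0 in the other 44, against 273, 184, 296 and 175 TPM for Cox8a. Cox8c and Cox7b2 were at 0 in all 45 libraries, where 3 reads would have given 0.277 to 1.26 TPM for Cox8c and 0.243 to 1.11 TPM for Cox7b2.

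Among the 3 genes that encode the same c subunit of the ATP synthase ring, Atp5g3 stood at 206, 285, 208 and 146 TPM. Atp5g1 stood at 2.45, 1.68, 3.86 and 0.85 TPM, and Atp5g2 never passed 2.11 TPM. Of Atp5g2, 87.4% of the 50-base stretches in its exons occur in another gene, so reads of this length could not be assigned to it alone. The same limit touches Atp5l (84.8% shared, 0.87, 0.80, 0.26 and 0.46 TPM) and Cox7c (53.0% shared, 2.65, 1.72, 1.36 and 0.39 TPM), which encode constitutive subunits. The low levels of Atp5g2, Atp5l and Cox7c are therefore uncertain. In all, 18 members share over 25% of their 50-base stretches with another gene. Among them are Ndufs3 (39.7%), Atp5f1 (38.7%), Atp5md (40.6%), Uqcrb (43.4%), Atp5h (50.5%) and Atp5o (50.3%), whose changes named below carry the same limit. How the authors' counting treated such reads is not given in the sources used here.

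At 4 hr of lipid A in experiment 1 complex I was split: 13 of its 35 tested subunits fell, 2 rose and 20 did not pass. Complex III had 3 of 8 lower and none higher, complex IV 1 lower and 1 higher of 15, and complex V 2 lower and 1 higher of 13. Atp5s and Atp5sl also fell, which made 21 members lower and 4 higher. Over all tested genes 37.4% fell and 20.1% rose, so the members' shares (28.8% lower, 5.48% higher) were not above the background. The members' median change was -0.95 on TPM and 0.01 on median-scaled TPM, against -0.84 and -0.06 for all genes. By complex the median on median-scaled TPM was -0.12 for I, -0.08 for III, 0.37 for IV and 0.17 for V.

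The scale decides what a count shows here. On TPM alone 58 of 73 members were lower, beside 61.2% of all genes, and on median-scaled TPM alone 19 were higher, beside 36.9%. The summed TPM of the 4 complexes was 7037 and 7913 in the libraries at 0 hr and 4127 at 4 hr, a log2 ratio of -0.86. On median-scaled TPM the sums were 5192 and 5987 at 0 hr and 6117 at 4 hr, a log2 ratio of 0.13. The summed level was thus lower on TPM in the library at 4 hr and slightly above both unstimulated libraries after scaling.

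**Figure D2:**
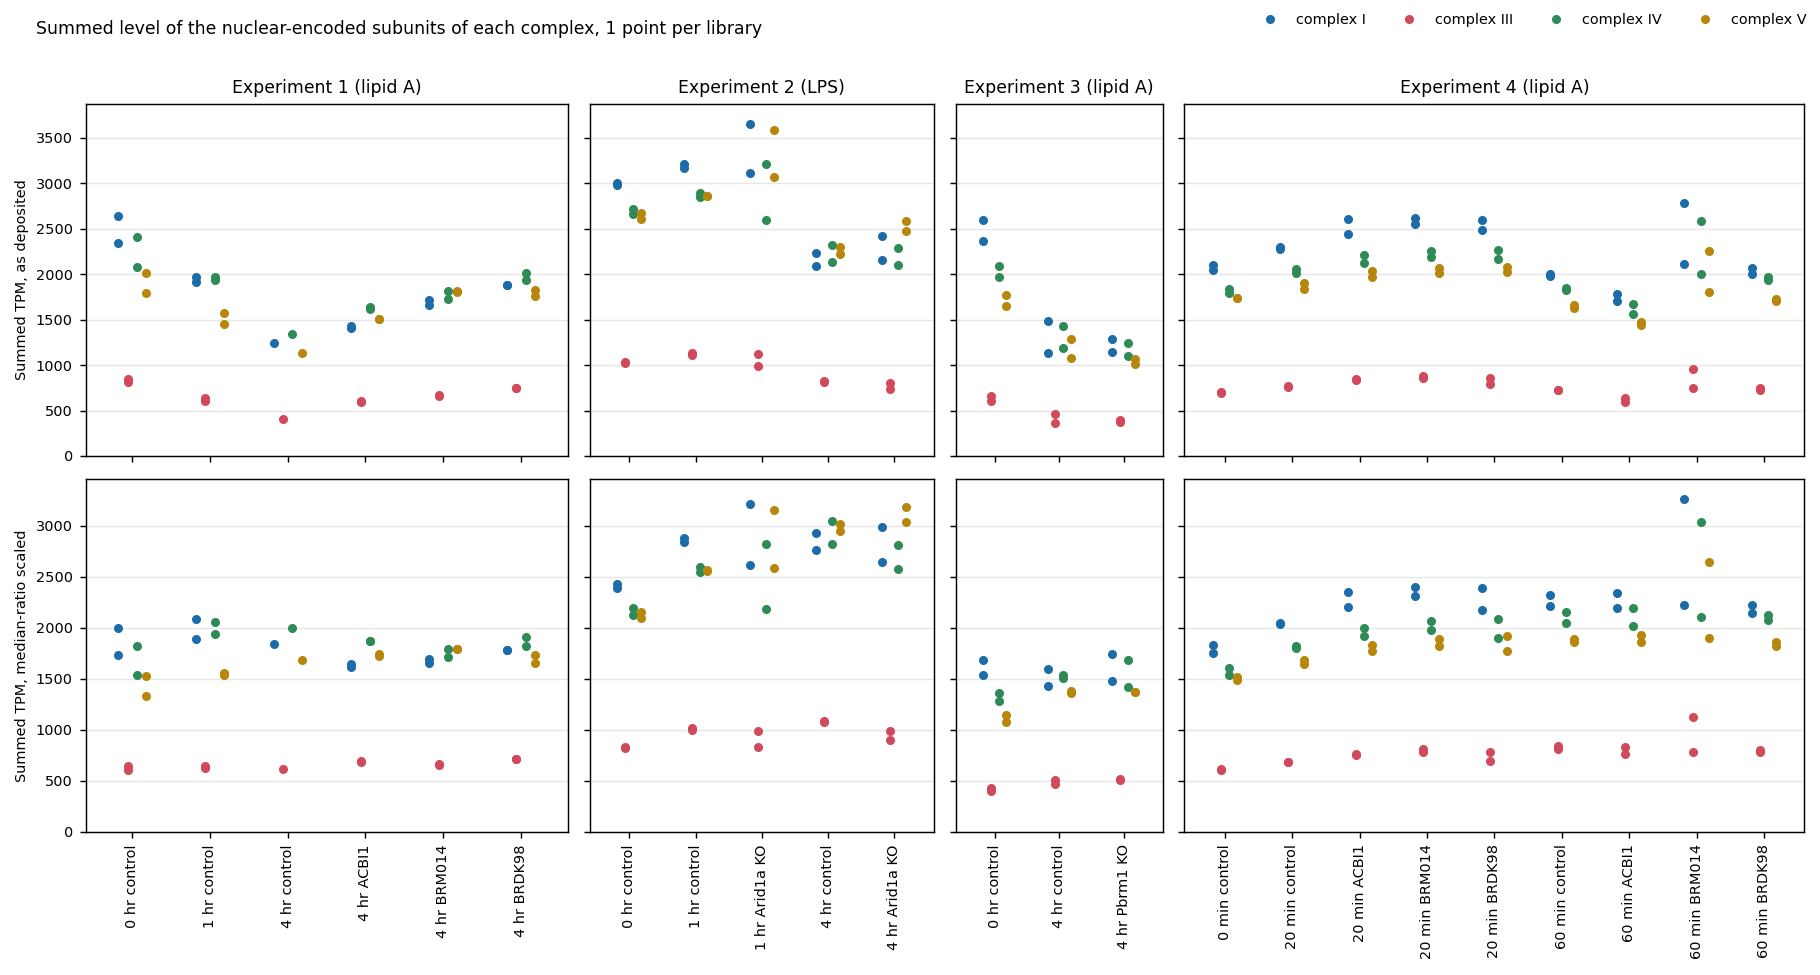
Summed level of the subunits of complexes I, III, IV and V in each of 45 libraries (1 point per library), as deposited TPM in the upper row and as median-scaled TPM in the lower row, by experiment and group. At 4 hr of lipid A or LPS the 4 complexes are each lower than at 0 hr on TPM in experiments 1 to 3, whereas their total on median-scaled TPM is above that at 0 hr, for example 6117 against 5192 and 5987 in experiment 1.

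The deepest falls among subunits on median-scaled TPM were in Ndufs7 and Ndufs8, adjacent in the arm of complex I that hands electrons to ubiquinone. Ndufs7, which holds the last iron-sulfur cluster before ubiquinone, stood at 68.8 and 90.6 TPM at 0 hr and at 11.3 TPM at 4 hr. Its log2 change was -2.70 ± 0.18 (SE) on TPM and -1.76 ± 0.20 on median-scaled TPM (limma adjusted p = 2.35e-07 and 2.21e-05), with the spread taken from the other groups. Ndufs8, its neighbour in the complex, also binds iron-sulfur clusters. It stood at 71.4 and 79.4 TPM and then at 16.9 TPM, a change of -2.09 ± 0.12 on TPM and -1.14 ± 0.14 on median-scaled TPM. Both genes are free of overlap and of 50-base stretches shared with another gene. Ndufs7 lies on chr10:80249452-80256792 (plus strand) and Ndufs8 on chr19:3908863-3912774 (minus strand) in mm10.

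Other fallers came from several modules. The accessory subunits Ndufa7 and Ndufv3 fell from means of 142 and 116 TPM to 32.5 and 26.8 TPM, or by 1.12 and 1.11 on the log2 scale of median-scaled TPM. Atp5e, the epsilon subunit on the central stalk of ATP synthase whose promoter is shown above, fell from 167 and 220 TPM to 45.2 TPM (median-scaled log2 change -1.09 ± 0.22). Of complex III, Uqcrb fell from a mean of 48.5 to 12.3 TPM and Uqcr10 from 143 to 39.4 TPM. Cox5a, a subunit of complex IV that faces the matrix, fell from 175 to 59.2 TPM (median-scaled log2 change -0.57 ± 0.12). Of the examples fixed for each complex, Ndufb8 (131 to 43.6 TPM) and Ndufv1, the NADH-binding subunit (39.6 to 14.4 TPM), also fell. The largest change of any member was in Atp5sl, which is no subunit, at 19.2 TPM before and 1.11 TPM after.

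There were 4 members that rose. Ndufa1, a small membrane subunit of complex I encoded on the X chromosome (chrX:37187589-37191238, minus strand), stood at 64.3 and 80.4 TPM at 0 hr and at 183 TPM at 4 hr. Its log2 change was 1.34 ± 0.18 on TPM and 2.31 ± 0.19 on median-scaled TPM (limma adjusted p = 4.59e-05 and 1.96e-06). Cox6c, a small membrane subunit of complex IV (chr15:35931976-35938246, minus strand), went from 95.9 and 96.9 TPM to 192 TPM. Ndufa5 went from 32.6 in both libraries to 44.7 TPM, and Atp5f1, the b subunit of the ATP synthase stator, from 72.2 and 80.1 to 96.2 TPM. All 4 values rest on the single library at 4 hr, and 183 TPM is the highest Ndufa1 value among the 45 libraries.

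Members with other roles did not pass on both scales. Cox4i1 stood at 319 TPM against 657 TPM (log2 change -1.04 on TPM and -0.05 on median-scaled TPM). Ndufs1 changed by -0.85 and 0.10, Ndufa9 by -1.08 and -0.12, Uqcrfs1, the Rieske subunit, by -0.86 and 0.11, and Uqcrc1 by -1.21 and -0.24 on the same scales. Atp5b stood at 205 TPM against 321 TPM, with changes of -0.65 and 0.34. Most calls of the 4 hr against 0 hr comparison were kept without either 0 hr library. The single 4 hr library, which enters every change, could not be left out.

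The split within the members was partly seen again in the separate libraries of experiment 3, whose cells were Pbrm1 f/f. After 4 hr of lipid A 10 members fell and none rose, beside 30.6% of all 11044 genes lower and 16% higher. The members' share lower (13.9%) was thus below the background. Complex I had 6 of 35 lower, complex V 2 of 13, and complexes III (8 tested) and IV (14 tested) none; Atp5s and Atp5sl were the rest. Ndufs7 stood at 44.4 and 58.4 TPM at 0 hr and at 12.6 and 19.0 TPM at 4 hr, a median-scaled log2 change of -0.84 ± 0.18 (limma adjusted p = 0.00533). Ndufs8 went from 53.8 and 68.9 to 18.2 and 27.9 TPM, a median-scaled change of -0.57 ± 0.19 (limma adjusted p = 0.0332). In both genes the groups did not overlap.

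Ndufa6, Ndufv3, Ndufb8, Ndufc1, Atp5e and Atp5h were the other subunits that fell in experiment 3. Ndufa6, an accessory subunit, went from 134 and 160 TPM to 49.1 and 51.7 TPM, and Atp5e from 148 and 158 TPM to 58.1 and 68.9 TPM. Of the fallers, 8 were shared with experiment 1, which is 38.1% of the 21 there and 80% of the 10 here: Atp5e, Atp5s, Atp5sl, Ndufa6, Ndufb8, Ndufs7, Ndufs8 and Ndufv3. Of all genes 37.4% fell in experiment 1 and 30.6% in experiment 3. The overlap among all genes was not counted, so the members' overlap has no background beside it. The members' median was -0.82 on TPM and 0.01 on median-scaled TPM, against -0.75 and -0.03 for all genes. On TPM alone 57 members were lower (61.9% of all genes) and on median-scaled TPM alone 12 were higher (31.4%). Without 0 hr replicate 2 the count fell to 3, and without 4 hr replicate 2 it rose to 16. Atp5sl, Ndufa6 and Ndufs7 were called in all 4 leave-outs. Atp5s was called in the 2 leave-outs in which it was tested.

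The 4 risers of experiment 1 did not pass in experiment 3. Ndufa1 stood at 114 and 104 TPM at 0 hr and at 98.5 and 106 TPM at 4 hr, and Cox6c at 134 and 123 TPM and then at 92.2 and 95.6 TPM. Ndufa5 stood at 61.3 and 50.3 TPM and then at 22.3 and 31.5 TPM. Atp5f1 stood at 64.6 and 63.2 TPM and then at 66.5 and 61.1 TPM. In experiment 2 at 4 hr Ndufa1 stood at 85.9 and 102 TPM against 104 and 113 TPM at 0 hr, and Cox6c at 146 and 146 TPM against 167 and 177 TPM. Whether the change in these genes differed between experiments was not tested, because each table was fitted on its own.

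After LPS in experiment 2 the members moved less on TPM. At 1 hr 12 members (15.8%) rose and none fell, beside 13.6% of all 11798 genes higher and 20.2% lower. The share that rose was thus near the background. The risers were 6 of complex I, 1 of III, 2 of IV and 3 of V. Ndufa5, the accessory subunit whose promoter with its NRF1 motif is shown above, went from 57.3 and 57.9 TPM to 80.8 and 87.7 TPM, a median-scaled log2 change of 0.69 ± 0.12 (limma adjusted p = 0.00133). The next were Ndufc1 (0.68), Uqcrq (0.66), Ndufb2 (0.62) and Ndufa2 (0.57). The smallest was Atp5b, at 428 and 412 TPM and then 485 and 491 TPM. The 5 lowest log2 changes among the risers on median-scaled TPM were in Atp5b (0.37), Atp5j (0.43), Atp5k (0.46), Cox7b (0.47) and Ndufb6 (0.52).

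That comparison has 2 limits. Leaving out any of its 4 libraries left 1 to 3 calls (0 hr replicate 1, 2 calls; 0 hr replicate 2, 3; 1 hr replicate 1, 1; 1 hr replicate 2, 2), with Ndufa5 in each. The labels also name polyA RNA for the 1 hr samples and total RNA for those at 0 hr, so time and RNA type cannot be told apart there. The same holds for 4 hr against 1 hr, since the 4 hr samples are labelled total RNA. Genes of up to 800 bases lay 0.11 and 0.14 below the experiment mean at 0 hr (-0.11 and -0.14) and 0.09 and 0.12 above it at 1 hr; their part in the result was not tested.

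At 4 hr of LPS 1 member was higher and none lower, beside 17.9% of all genes higher and 35.5% lower. The 1 member was Ndufs4, a late-assembled subunit of complex I. Ndufs4 stood at 31.7 and 33.2 TPM at 0 hr and at 45.6 and 39.9 TPM at 4 hr (log2 change 0.38 ± 0.15 on TPM, limma adjusted p = 0.0322, and 1.08 ± 0.16 on median-scaled TPM). Without either 0 hr library no member passed, and without 4 hr replicate 2 there were 2. On TPM alone 42 members were lower, beside 62.8% of all genes, and on median-scaled TPM alone 38 of 76 were higher, beside 33.9%. The median was -0.36 and 0.31 for the members and -0.63 and -0.03 for all genes. By complex the median-scaled median was 0.23 for I, 0.42 for III, 0.46 for IV and 0.45 for V. Ndufs7 stood at 96.6 and 88.7 TPM and then at 47.5 and 56.0 TPM, with changes of -0.83 on TPM and -0.13 on median-scaled TPM, and did not pass on the latter.

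In experiment 4 the first hour was tested in wild-type cells. No member passed at 20 min, when 1.08% of all 11549 genes passed, or at 60 min, when 25.5% passed. In limma 14 members at 20 min and 1 member at 60 min had an unadjusted p under 0.05 on both scales in 1 direction, and voom on the recovered reads called 0 at both times. Without 0 min replicate 2, 3 members passed at 20 min and 2 at 60 min. At 60 min the scales again split: on TPM alone 10 members were lower (54.6% of all genes), and on median-scaled TPM alone 38 of 74 were higher (18.9%). The median for the members was -0.03 on TPM and 0.35 on median-scaled TPM, against -0.33 and 0.00 for all genes. Genes of up to 800 bases lay 0.25 and 0.23 below the experiment mean in the 0 min libraries (-0.25 and -0.23) and within 0.03 of it in the 60 min controls (0.02 and -0.02), and the part of transcript length in that shift was not tested.

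At 1 hr of lipid A in experiment 1 Ndufb4 and Atp5sl fell and none rose, beside 19.2% of all genes lower and 9.9% higher. The direction turned with the scale: on TPM alone 48 members were lower and none higher (53.1% of all genes lower), and on median-scaled TPM alone 15 were higher and 2 lower (21.8% of all genes higher). Ndufb4, an accessory subunit of the membrane arm, went from 12.4 and 10.6 TPM to 4.38 and 3.43 TPM, and Atp5sl from a mean of 19.2 to 9.38 TPM. Ndufb4 shares 37.0% of its 50-base stretches with other genes. Without 0 hr replicate 1 the count was 7, without 1 hr replicate 2 it was 1, and voom on the recovered reads called 6. The stromal markers named above were high in 1 hr replicate 1; without that library 3 members passed.

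**Figure D3:**
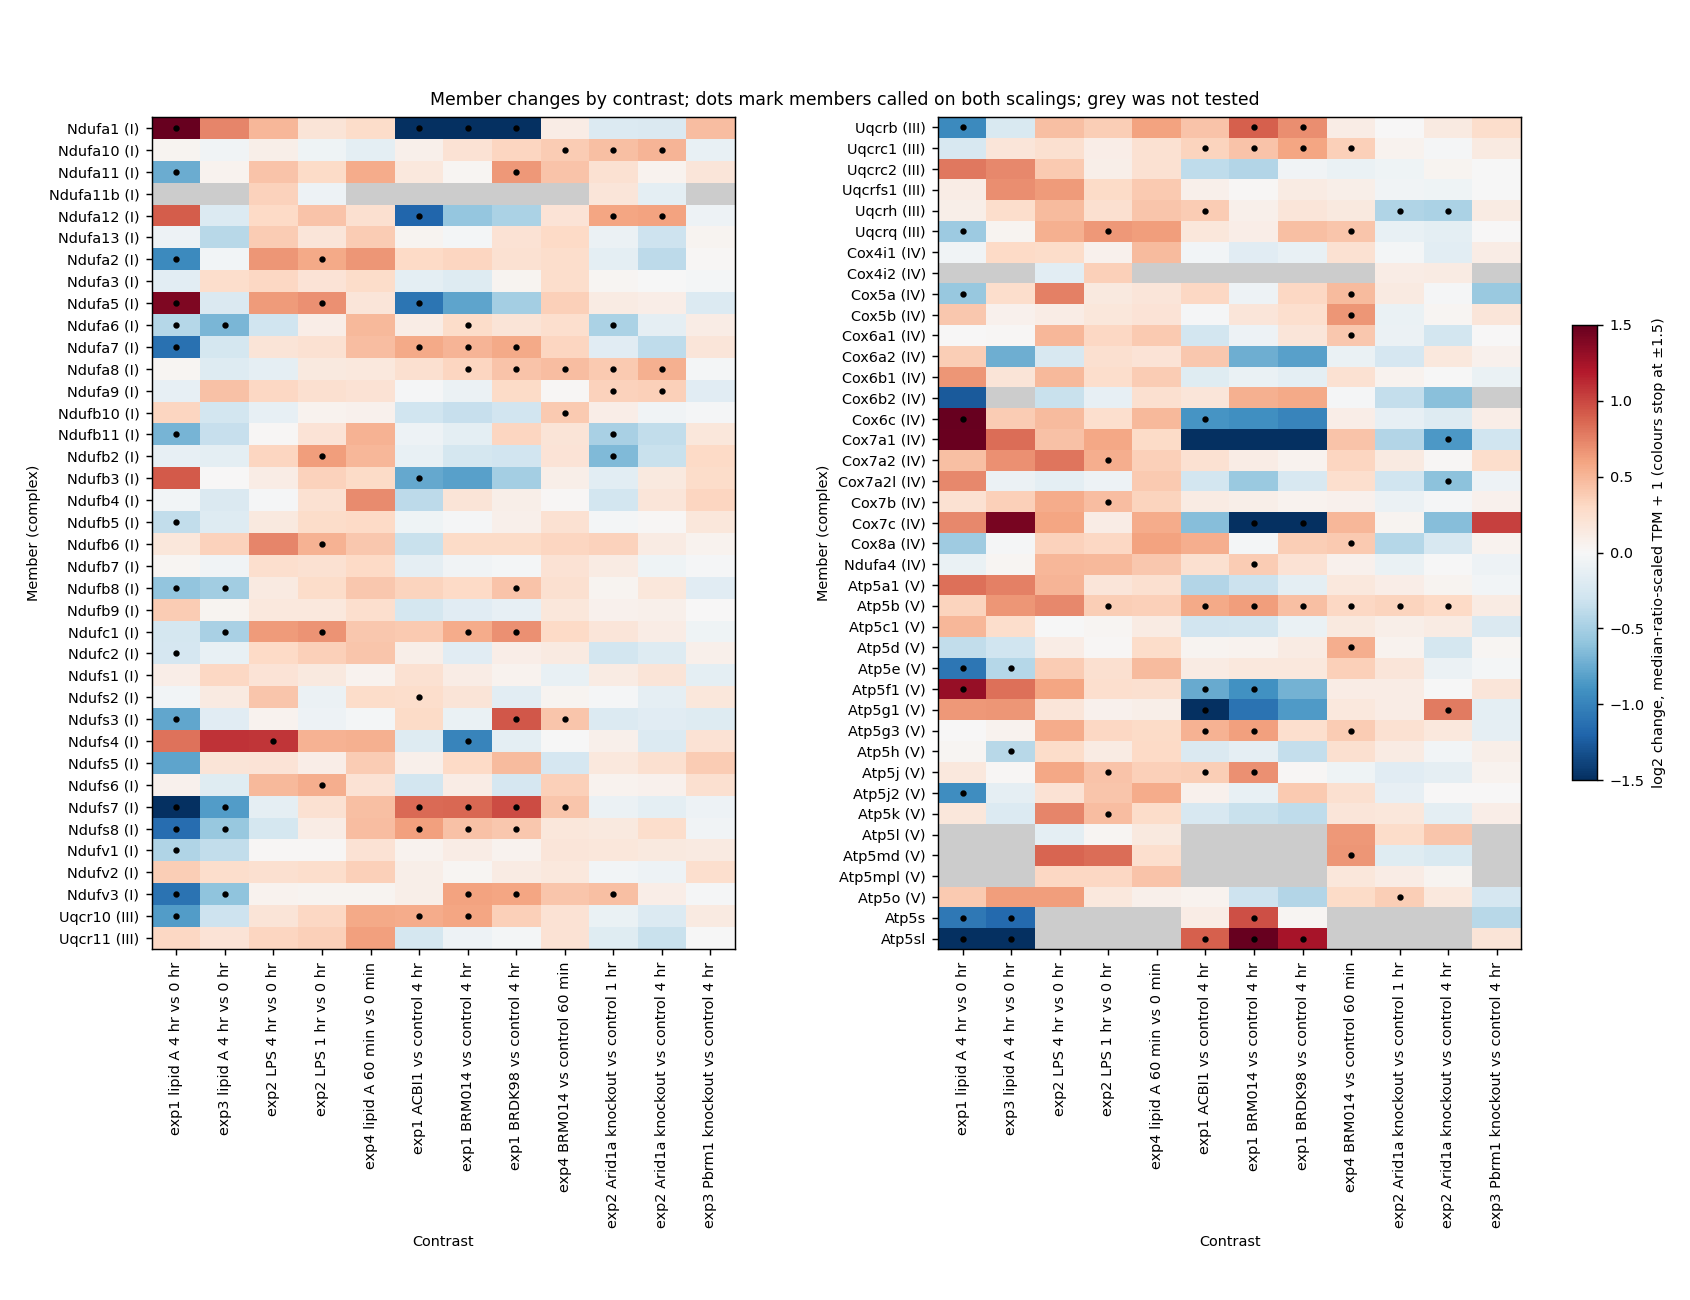
Log2 change of each tested member (rows, with its complex) on median-scaled TPM + 1 in 12 contrasts (columns); red is higher, blue lower, grey not tested, and dots mark members called on both scales. Ndufs7 and Ndufs8 are blue with dots at 4 hr of lipid A in experiments 1 and 3 and red with dots for the 3 compounds at 4 hr, and Ndufa1 shows the opposite colours in experiment 1.

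Other genes of the pathway were counted from lists made with earlier results of these data known. Complex II, which enters the chain beside complex I, had 3 of 4 lower at 4 hr in experiment 1 (Sdhd, Sdhb and Sdhc), 1 of 4 in experiment 3 (Sdhb) and none in experiment 2. Of the assembly factors 18 of 44 fell and 5 rose in experiment 1, 13 of 45 and 3 in experiment 3, and 13 of 44 and 5 in experiment 2. The shares that fell, 40.9%, 28.9% and 29.5%, were near or below those of all genes, 37.4%, 30.6% and 35.5%, and the shares that rose, 11.4%, 6.67% and 11.4%, were below 20.1%, 16% and 17.9%. Sco1 and Sco2, the copper chaperones of complex IV, moved apart in experiment 1: Sco1 went from a mean of 3.46 to 26.5 TPM and Sco2 from 22.2 to 0.944 TPM. In experiment 3 Sco1 went from 4.40 to 31.0 TPM and Sco2 from 18.2 to 1.96 TPM. Coa5, another complex IV factor, rose in all 3 experiments, with median-scaled log2 changes of 1.86, 1.79 and 2.22 in experiments 1, 3 and 2, and Coa6 fell in all 3 (-2.97, -1.56 and -1.62).

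Among the mobile carriers, 7 of 18 fell (38.9%) and 3 rose (16.7%) in experiment 1, near the 37.4% and 20.1% of all genes. Coq10a and Coq9, which act in ubiquinone handling and synthesis, fell from 16.3 and 29.3 TPM to 0.646 and 2.67 TPM, and Pdss1, which builds the ubiquinone tail, rose from 2.12 to 20.2 TPM. Of the citric acid cycle and pyruvate dehydrogenase list 5 of 16 fell (31.2%) and 1 rose (6.25%): Fh1, fumarase, went from 82.5 to 13.2 TPM and Dld from 44.1 to 155 TPM. Of the mitochondrial ribosomal proteins 34 of 76 fell (44.7%) and 5 rose (6.58%), and of the cytosolic ribosomal proteins 29 of 70 fell (41.4%) and 5 rose (7.14%). Among genes that modify respiration, Acod1, which makes itaconate, went from 13.3 to 4947 TPM. Ucp2, an uncoupling protein family member, went from 506 to 166 TPM.

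A paralog of a member, outside the rule, rose at 4 hr in all 3 experiments with that time. Ndufa4, first assigned to complex I and now counted as a subunit of complex IV, has the paralog AA467197 (NMES1, the human C15orf48 gene), which can take its place. AA467197 stood at 2.82 and 2.79 TPM at 0 hr in experiment 1, at 16.1 and 12.97 TPM at 1 hr and at 267 TPM at 4 hr. In the same libraries Ndufa4 stood at 154 and 162 TPM at 0 hr and at 74.5 TPM at 4 hr. The log2 change at 4 hr was 6.14 on TPM for AA467197. It was -1.07 on TPM and -0.10 on median-scaled TPM for Ndufa4, which did not pass. The other paralog, Ndufa4l2, was at 0 in 36 of 45 libraries and never passed 3.01 TPM.

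AA467197 also rose in the other experiments with a 4 hr point. In experiment 2 it went from 0.492 and 0.797 TPM to 72.9 and 65.5 TPM. In experiment 3 it went from 4.25 and 3.25 TPM to 545 and 121 TPM, 2 control libraries that differ widely, while the Pbrm1 knockout libraries held 525 and 508 TPM. In the 4 hr controls AA467197 was thus above Ndufa4 in experiments 1 and 3 and below it in experiment 2, as the plot of both genes shows. In experiment 3 Ndufa4 stood at 84.3 and 114 TPM in these controls, so the 2 genes were close in replicate 2. The knockout libraries held 87.0 and 78.0 TPM of Ndufa4. TPM is per length, so the 2 genes can be set side by side on this scale. In experiment 4 AA467197 stayed between 2.92 and 8.92 TPM in the 60 min libraries.

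**Figure D4:**
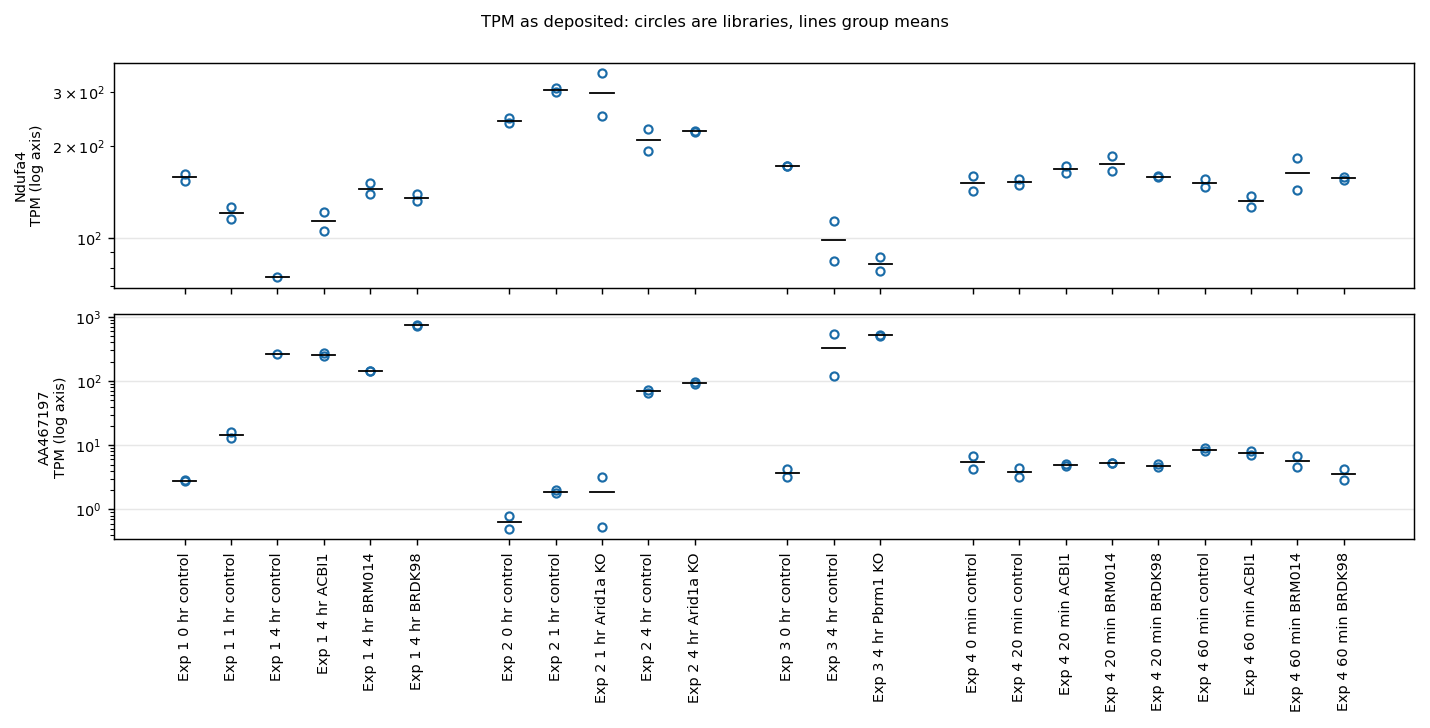
TPM of Ndufa4 (top) and of its paralog AA467197 (bottom) in every library, on log axes, by experiment and group; circles are libraries and lines are group means. AA467197 goes from 2.82 and 2.79 TPM at 0 hr to 267 TPM at 4 hr of lipid A in experiment 1, where BRDK98 libraries hold 758 and 730 TPM and BRM014 libraries 145 and 145 TPM.

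The compound comparisons at 4 hr all use the same single control library, so they share its error, and each compound group has 2 libraries. With ACBI1 11 of 73 members were higher and 7 lower, beside 20% and 13.5% of all genes. With BRM014 16 were higher and 4 lower, beside 26.4% and 16.4%. With BRDK98 13 were higher and 2 lower, beside 22% and 12.4%. The members' shares were 15.1% and 9.59%, 21.9% and 5.48%, and 17.8% and 2.74%, none above the background. The excess of higher over lower members depends on the scale. On TPM alone 34 were higher and 7 lower with ACBI1 (34.5% of all genes higher), 52 and 4 with BRM014 (48.3%), and 55 and 2 with BRDK98 (49.6%). On median-scaled TPM alone 11 were higher and 9 lower with ACBI1 (25.6% of all genes lower), 16 and 15 with BRM014 (30.3%), and 13 and 9 with BRDK98 (29.9%). Voom on the recovered reads called 9, 8 and 7 in all, and for BRDK98 the count fell from 15 to 9 without BRDK98 replicate 2. Leaving out either library of the compound kept 9 of the 18 calls with ACBI1, 7 of the 20 with BRM014 and 8 of the 15 with BRDK98 in both leave-outs.

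The medians were close to those of all genes after scaling. The members' median was 0.40 on TPM and 0.06 on median-scaled TPM with ACBI1 (all genes 0.25 and -0.01), 0.55 and 0.02 with BRM014 (0.43 and 0.00), and 0.70 and 0.10 with BRDK98 (0.46 and -0.02). The summed TPM of the 4 complexes was 4127 in the control, 5155 and 5148 with ACBI1, 6007 and 5861 with BRM014 and 6325 and 6472 with BRDK98. On median-scaled TPM the sums were 6117 in the control, 5896 and 5943 with ACBI1, 5937 and 5815 with BRM014 and 5969 and 6133 with BRDK98. The higher sums on TPM were thus not seen after scaling, where 5 of the 6 libraries lay below the control. By complex, those higher and lower were 4 and 4 of complex I, 3 and 0 of III, 0 and 1 of IV and 3 and 2 of V with ACBI1. With BRM014 they were 7 and 2, 3 and 0, 1 and 1, and 3 and 1. With BRDK98 they were 9 and 1, 2 and 0, 0 and 1, and 1 and 0.

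Ndufs7, Ndufs8 and Ndufa7, which had fallen with lipid A, lay between the 4 hr control and the unstimulated libraries. Ndufs7, at 11.3 TPM in the control, stood at 24.7 and 29.4 TPM with ACBI1, 31.4 and 31.7 TPM with BRM014 and 36.1 and 35.7 TPM with BRDK98. Its median-scaled log2 changes were 0.85, 0.86 and 0.98, each ± 0.20, and all were below the 68.8 and 90.6 TPM at 0 hr. Ndufs8, at 16.9 TPM in the control, stood at 33.8 and 33.9, 34.6 and 34.9, and 36.7 and 34.2 TPM in the same order. Ndufa7, at 32.5 TPM, stood at 61.1 and 63.8, 66.9 and 73.2, and 76.7 and 75.5 TPM. All 3 genes were called with each compound, but only the calls of Ndufs7 were kept in both leave-outs for all 3 compounds. Ndufs8 kept both with ACBI1, 1 of 2 with BRM014 and 0 of 2 with BRDK98, and Ndufa7 kept 0, 1 and 0 of 2.

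Ndufa1 was the 1 member lower with all 3 compounds, and its calls were kept without either library of the compound. Against 183 TPM in the control it stood at 50.8 and 61.1 TPM with ACBI1, 78.1 and 76.8 TPM with BRM014 and 101 and 77.7 TPM with BRDK98, with median-scaled log2 changes of -2.07, -1.81 and -1.68. These 6 values are near the 64.3 and 80.4 TPM of the libraries at 0 hr. Since 1 control library enters every one of these changes and also the change with lipid A, the opposite directions of Ndufs7 and Ndufa1 are not independent of that library.

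Atp5b and Uqcrc1 were also higher with all 3 compounds. The calls of Atp5b were kept without either library of the compound, as was that of Uqcrc1 with BRDK98 but not with ACBI1 or BRM014. The single control library could not be left out. Atp5b stood at 205 TPM in the control and at 397 and 387, 468 and 481, and 425 and 453 TPM with ACBI1, BRM014 and BRDK98, above the control in all 6 libraries and also above its 0 hr mean of 321 TPM. Uqcrc1, a core protein of complex III, stood at 44.6 TPM and at 68.3 and 77.2, 95.7 and 85.4, and 104 and 108 TPM. The limma adjusted p for Atp5b on median-scaled TPM was 0.00106, 0.00035 and 0.00341 for the 3 compounds, with no spread measured in the control itself.

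**Figure D5:**
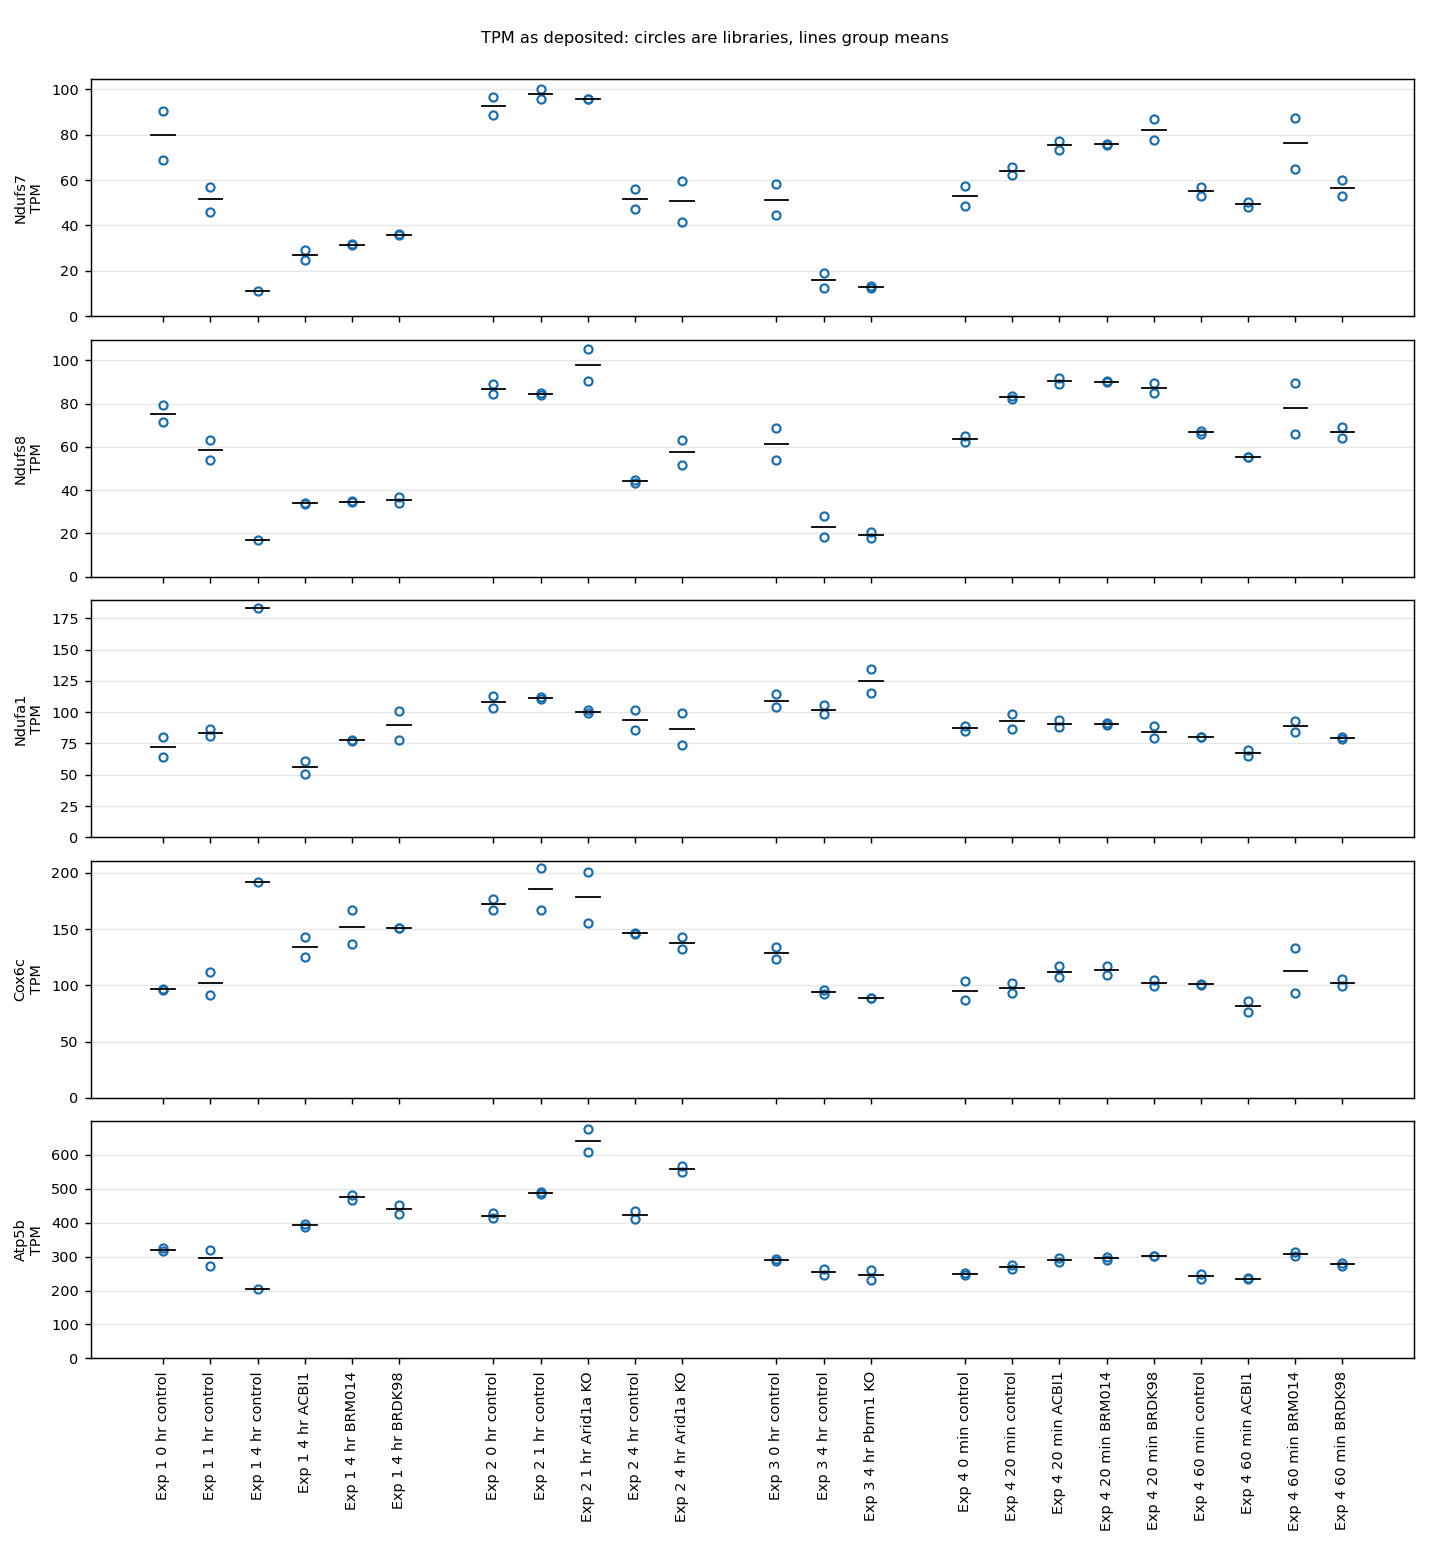
TPM of Ndufs7, Ndufs8, Ndufa1, Cox6c and Atp5b in every library by experiment and group; circles are libraries and lines are group means. At 4 hr in experiment 1 the single control library is low for Ndufs7 (11.3 TPM) and Ndufs8 (16.9 TPM) and high for Ndufa1 (183 TPM), and the libraries with compounds lie on the other side of it.

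Some members changed with 1 or 2 compounds. With ACBI1 Ndufa12, a late-assembled complex I subunit, stood at 9.67 and 11.3 TPM against 19.4 TPM, and Ndufa5 at 25.5 and 27.3 TPM against 44.7 TPM. Cox6c stood at 143 and 125 TPM with ACBI1 against 192 TPM (median-scaled log2 change -0.88 ± 0.13). It stood at 167 and 137 TPM with BRM014 and at 151 and 151 TPM with BRDK98, which did not pass. With BRM014 Atp5j, a coupling factor of the ATP synthase stalk, stood at 179 and 176 TPM against 73.9 TPM, Uqcrb at a mean of 35.3 TPM against 12.3 TPM, and Ndufs4 at 18.01 and 16.002 TPM against 23.3 TPM. With BRDK98 Ndufs3, a core subunit of complex I, stood at 24.4 and 28.4 TPM against 8.48 TPM. Ndufs3 shares 39.7% of its 50-base stretches with other genes, so its level carries that uncertainty. Atp5f1 was lower with ACBI1 and BRM014, at means of 73.1 and 76.2 TPM against 96.2 TPM.

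Direct comparisons between compounds at 4 hr do not use the single control. Against ACBI1, BRM014 had 8 members higher and 3 lower, beside 16.2% and 14.1% of all genes. On TPM alone these were 25 and 3 (30.6% of all genes higher), and on median-scaled TPM alone 8 and 7 (20.1% of all genes lower). Ndufa12 stood at 18.5 and 19.8 TPM with BRM014 and 9.67 and 11.3 TPM with ACBI1 (median-scaled log2 difference 0.62 ± 0.11), and Ndufb6 at 37.7 and 27.6 TPM against 18.3 and 17.3 TPM. Ndufs4 was lower with BRM014, at 18.01 and 16.002 TPM against 29.4 and 23.2 TPM (-0.80 ± 0.13). Without either ACBI1 library 5 calls were left, and without either BRM014 library 7. Ndufa12 and Ndufb6 share 53.8% and 34.1% of their 50-base stretches with another gene, so their levels carry that uncertainty.

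BRDK98 against ACBI1 had 13 members higher and 1 lower, beside 21.2% and 15.4% of all genes. On TPM alone these were 41 and 1 (37.3% of all genes higher), and on median-scaled TPM alone 13 and 7 (24.2% of all genes lower). Ndufa12 stood at 22.2 and 20.9 TPM with BRDK98 (0.71 ± 0.11, limma adjusted p = 0.000572), and Ndufa5 at 53.2 and 44.9 TPM against 25.5 and 27.3 TPM (0.59 ± 0.13). Ndufs3 (0.65), Ndufb6 (0.62) and Ndufv3 (0.50) were the others of the 5 highest, and the 1 lower member, Cox6a2, was under 5 TPM in both groups. The counts fell to 6 without ACBI1 replicate 1 or BRDK98 replicate 1 and to 8 without ACBI1 replicate 2. Ndufa12, Ndufa5 and Ndufb6 were called in every leave-out.

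BRDK98 against BRM014 had 10 members higher and 4 lower, beside 23.2% and 22.1%. On TPM alone these were 18 and 4, beside 25.7% of all genes higher. Ndufs3 stood at 24.4 and 28.4 TPM with BRDK98 and 14.5 and 9.54 TPM with BRM014 (1.03 ± 0.16), and Ndufs4 at 33.3 and 32.5 TPM against 18.01 and 16.002 TPM (0.85 ± 0.13). Atp5j was lower, at 115 and 120 TPM against 179 and 176 TPM (-0.66 ± 0.08, limma adjusted p = 7.47e-05). Atp5j overlaps Gabpa over 22.5% of its exonic bases, and reads were counted on both strands. The count was 8 without BRM014 replicate 1, 9 without BRDK98 replicate 1 and 6 without BRDK98 replicate 2, and Ndufs3, Ndufs4 and Atp5j were called in every leave-out.

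AA467197 separated the compounds as well. At 4 hr it stood at 275 and 243 TPM with ACBI1, which did not pass against 267 TPM in the control. It was lower with BRM014 (145 and 145 TPM, log2 change -0.87 on TPM and -1.45 on median-scaled TPM) and higher with BRDK98 (758 and 730 TPM, 1.48 and 0.83). Ndufa4 stood at 122 and 106, 139 and 152, and 139 and 133 TPM with ACBI1, BRM014 and BRDK98 against 74.5 TPM in the control, and passed with BRM014 (median-scaled log2 change 0.38 ± 0.13).

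Of the assembly factors 12 of 44 were higher and 5 lower with ACBI1, 17 and 4 with BRM014 and 19 and 1 with BRDK98. The shares higher were 27.3%, 38.6% and 43.2%, beside 20%, 26.4% and 22% of all genes. Of all genes 13.5%, 16.4% and 12.4% were lower. Sco1 was lower with all 3, at means of 14.9, 6.31 and 18.3 TPM against 26.5 TPM. Coa6 was higher with all 3, at 6.84, 6.43 and 7.21 TPM against 0.709 TPM. Among the mitochondrial ribosomal proteins 24, 34 and 31 of 76 were higher (31.6%, 44.7% and 40.8%) and 1, 3 and 1 lower. Idh3a, of the citric acid cycle, stood at 15.6, 23.5 and 17.5 TPM against 5.33 TPM. Acod1 stood at 618 TPM with BRM014 and 1420.1 TPM with BRDK98 against 4947 TPM.

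The targeted genes were read in every library. Compounds act on protein, so RNA is no check of them: Smarca4 stood at 45.5 TPM in the 4 hr control and at 74.6 and 89.0 TPM with ACBI1, 66.5 and 69.5 TPM with BRM014 and 79.6 and 78.8 TPM with BRDK98. At 4 hr the granulocyte markers summed to 6.60 and 6.75 TPM with BRDK98, 53.0 and 43.9 TPM with BRM014 and 31.4 and 24.5 TPM with ACBI1, against 21.8 TPM in the control. The 6 dendritic cell markers summed to 9.67 and 9.81 TPM with BRM014 against 2.37 TPM in the control. Of these 6 genes 5 were under 1 TPM in every library, so the sum rests mainly on the remaining gene. Any part of other cell types in the comparisons with a compound and between compounds at 4 hr was not tested.

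In experiment 4 the compounds were compared with 2 controls each. At 20 min no member passed with ACBI1, BRM014 or BRDK98, when 0.147%, 0.39% and 1.33% of all genes passed. In limma 4, 9 and 7 members had an unadjusted p under 0.05 on both scales in 1 direction, and voom on the recovered reads called 0, 0 and 1. Without 20 min control replicate 1, 1 member passed with BRDK98. The members' median was 0.10 and 0.12 on TPM and median-scaled TPM with ACBI1, 0.15 and 0.18 with BRM014 and 0.12 and 0.13 with BRDK98.

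At 60 min no member passed with ACBI1 (25.2% of all genes) or BRDK98 (11.6%). On TPM alone 18 were lower with ACBI1, beside 27.7% of all genes lower. Unadjusted limma p-values were under 0.05 on both scales for 1 member and 2 members, and voom called 0 in both. With BRM014 15 members (20.3%) were higher and none lower, beside 16.8% of all genes higher and 13.4% lower. The 15 were 5 of complex I, 2 of III, 4 of IV and 4 of V. Atp5b stood at 313 and 302 TPM against 235 and 249 TPM, a median-scaled log2 change of 0.31 ± 0.07 (limma adjusted p = 0.00555). Cox5b (0.66), Atp5md (0.66), Atp5d (0.54), Cox5a (0.48) and Ndufa8 (0.46) had the largest changes.

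The granulocyte markers at 60 min summed to 281 and 298 TPM with ACBI1 against 438 and 460 TPM in the controls and 524 and 459 TPM with BRM014, and their part in the comparisons was not tested.

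The count with BRM014 turns on BRM014 replicate 1, the library in which short genes lie high. Without it 3 members were higher and 1 lower, and without BRM014 replicate 2 there were 59 higher. Without control replicate 1 or 2 the count was 5 or 4, and Atp5b was the 1 member called in every leave-out. Of the 955 tested genes of up to 800 bases 165 were higher and 47 lower in this comparison, of the mitochondrial ribosomal proteins 38 of 77 were higher and of the cytosolic ones 16 of 70, with none lower in either list. The part of transcript length in the result was not tested.

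Between compounds at 60 min, BRM014 against ACBI1 had 25 members higher (33.8%) and none lower, beside 28.2% of all genes higher and 19.6% lower. Without BRM014 replicate 1 the count was 3, without replicate 2 it was 62, and without ACBI1 replicate 1 or 2 it was 5 or 10. Atp5a1 (mean 259 against 183 TPM, median-scaled log2 difference 0.27 ± 0.07) and Atp5md (15.5 against 7.55 TPM) were called in every leave-out. BRDK98 against ACBI1 had Atp5md higher (20.7% of all genes) and Cox6a2 lower (14.3%), or 35 higher and 1 lower on TPM alone (43.1% of all genes higher), and 1 call was left without ACBI1 replicate 1 or either BRDK98 library. BRDK98 against BRM014 had 9 lower (12.2%) and none higher, beside 12.3% of all genes lower and 14.4% higher. That count was 2 without BRM014 replicate 1, 57 without BRM014 replicate 2, 2 without BRDK98 replicate 1 and 0 without BRDK98 replicate 2.

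Loss of ARID1A, the subunit that defines the BAF form of SWI/SNF, moved a small set of members in both directions. Arid1a stood at 7.17 and 13.2 TPM in Arid1a-/- cells at 1 hr against 18.3 and 17.3 TPM. At 4 hr it stood at 25.4 and 26.1 TPM against 35.2 and 41.9 TPM, so its RNA was lower in all 4 knockout libraries. The 7.17 TPM is from replicate 1 at 1 hr, the library in which long genes lie low. At 1 hr of LPS 7 members were higher and 4 lower, beside 18.7% and 16.8% of all genes. At 4 hr 6 were higher and 3 lower, beside 13.9% and 10.8%. The members' shares, 9.21% and 5.26% at 1 hr and 7.89% and 3.95% at 4 hr, were below the background.

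Atp5b, Ndufa8, Ndufa9, Ndufa10 and Ndufa12 were higher at both times. They are 71.4% of the 7 at 1 hr and 83.3% of the 6 at 4 hr, from separate libraries with a common genotype. The overlap between the 2 times among all genes was not counted. Ndufa10, an accessory subunit of complex I (chr1:92439719-92473758, minus strand), stood at 61.7 and 58.3 TPM against 43.2 and 40.7 TPM at 1 hr, and at 51.5 and 46.5 TPM against 31.9 and 31.5 TPM at 4 hr. Its median-scaled log2 change was 0.45 ± 0.09 and 0.51 ± 0.09 (limma adjusted p = 0.0032 and 0.00195). The groups of Ndufa10 did not overlap at either time. It was the 1 member called in every leave-out at both times.

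Ndufa8, which carries disulfide-linked cysteines on the intermembrane side and whose promoter holds the NRF1 motif printed above, stood at 150 and 110 TPM against 94.8 and 92.95 TPM at 1 hr. At 4 hr it stood at 84.3 and 78.8 TPM against 49.1 and 56.0 TPM. Ndufa9 stood at 97.1 and 98.7 TPM against 72.9 and 74.0 TPM, and at 71.2 and 74.1 TPM against 52.6 and 52.7 TPM. Atp5b stood at 675 and 609 TPM against 485 and 491 TPM at 1 hr and at 566 and 550 TPM against 409 and 434 TPM at 4 hr. In each of these 3 genes all knockout libraries were above the controls of their time, with 2 libraries a group. The calls were not steady. Of 4 leave-outs at 1 hr and 4 at 4 hr, 1 and 1 kept Ndufa8, 3 and 3 kept Ndufa9, and 2 and 0 kept Atp5b.

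Uqcrh, the hinge protein of complex III whose promoter with its ETS motif is shown above, was lower at both times. It stood at 207 and 169 TPM against 245 and 248 TPM at 1 hr and at 154 and 150 TPM against 204 and 192 TPM at 4 hr, with median-scaled log2 changes of -0.45 ± 0.11 and -0.48 ± 0.11. Its calls were kept in 2 of 4 leave-outs at 1 hr and 1 of 4 at 4 hr. At 1 hr Ndufv3 (0.45) and Atp5o (0.37) were also higher, and Ndufb2 (-0.67), Ndufb11 (-0.48) and Ndufa6 (-0.48) lower. At 4 hr Atp5g1, at 2.88 TPM on average against 1.29 TPM, was also higher, and Cox7a1 (-0.86) and Cox7a2l (-0.61) were lower. Cox7a2l stood at 38.02 and 34.6 TPM against 55.2 and 48.9 TPM.

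The counts at 1 hr depend on which library is used. Without Arid1a-/- replicate 1 there were 3 higher and 8 lower, without replicate 2 there were 23 higher and 1 lower, and without either 1 hr control there were 2. At 4 hr leaving out a control left 4 and leaving out knockout replicate 1 or 2 left 2 or 3. The test of the difference between the effects at 4 hr and 1 hr, which also sets total RNA against polyA RNA by the labels, called no member (15.9% of all genes). No member had an unadjusted limma p under 0.05 in that test, and voom called 0. Without 1 hr knockout replicate 1 or 2 the limma test called 2 or 3.

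The other mitochondrial lists were counted with ARID1A loss beside the 18.7% of all genes higher at 1 hr and the 13.9% at 4 hr. Of the mobile carriers 6 of 18 were higher (33.3%) and none lower at each time. Among them Slc25a5, an ADP/ATP exchanger of the inner membrane, stood at a mean of 118 against 70.5 TPM at 1 hr and 88.6 against 49.02 TPM at 4 hr. Of the citric acid cycle list 5 of 16 were higher (31.2%) and 1 lower at 1 hr, and 6 higher (37.5%) at 4 hr. Idh3a stood at 37.0 against 12.4 TPM at 1 hr and at 22.1 against 9.81 TPM at 4 hr, and Mdh2 at 209 against 124 TPM and 152 against 93.5 TPM. Among mitochondrial ribosomal proteins 29 of 76 were higher (38.2%) and 1 lower at 1 hr, against 10 (13.2%) and 2 at 4 hr. Among assembly factors 13 of 44 were higher (29.5%) and 4 lower at 1 hr, against 5 (11.4%) and 2 at 4 hr. At 4 hr the shares of both lists were below that of all genes, and the 1 hr counts include the Arid1a-/- library in which long genes lie low.

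Loss of PBRM1, the subunit that defines the PBAF form, was tested at 4 hr of lipid A. Pbrm1 stood at 4.54 and 5.03 TPM against 15.6 and 14.7 TPM. No member passed, and 0.00905% of all genes did. In limma 1 of 72 members, Cox5a, had an unadjusted p under 0.05 on both scales (0.0111 on TPM, adjusted p = 0.468), voom called 0, and 1 passed without 4 hr control replicate 1. Cox5a stood at a mean of 52.1 TPM against 90.1 TPM. The members' median difference was -0.14 on TPM and 0.03 on median-scaled TPM, with single members between -0.56 and 1.03 on the latter. Cox4i1 stood at 301 against 315 TPM, Atp5b at 246 against 255 TPM and Ndufs7 at 12.9 against 15.8 TPM. With 2 libraries a group and 3 residual degrees of freedom, small differences would not be detectable, and no passing member does not show that levels were equal.

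The authors also deposited their own comparisons, and their counts of members differ from those above in several places. The authors' deposited table for experiment 1 gives 5 members higher and none lower at 1 hr of lipid A, and 16 higher and 18 lower at 4 hr, when it calls 12.015% and 32.2% of all listed genes. For ACBI1, BRM014 and BRDK98 at 4 hr the authors' deposited table gives 11 higher and 10 lower, 9 and 11, and 12 and 3, when it calls 20.0%, 24.0% and 23.5%. With BRM014 the 16 higher and 4 lower above needed a call on both scales. On median-scaled TPM alone the members called with BRM014 were also nearly balanced, as given above. In experiment 3 the authors' deposited table gives 10 higher and 5 lower with lipid A (25.8%) and none with PBRM1 loss (0.0448%).

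For LPS the authors' deposited table gives 35 higher at 1 hr (19.6%) and 37 at 4 hr (30.3%), with none lower, against 12 and 1 above. For ARID1A loss the authors' deposited table gives 1 higher at 1 hr (10.6%), and 5 higher and 2 lower at 4 hr (10.9%). In experiment 4 the authors' deposited table gives 6 higher at 20 min (2.43%) and 33 at 60 min (12.97%) of lipid A, where none passed above. With ACBI1, BRM014 and BRDK98 at 20 min the authors' deposited table gives 2, 16 and 5 higher (1.46%, 2.83% and 2.87%), where none passed above. At 60 min the authors' deposited table gives none with any compound (13.1%, 4.71% and 5.82%), against 15 with BRM014 above.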

How the data were processed

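RNA of mouse bone marrow-derived macrophages was sequenced as 50-base single-end reads. Per the submitters' processing notes and the file headers, the authors aligned reads with STAR 2.5.3a to mm10 and counted exons of each gene on both strands with HOMER. The deposited TPM values were made by the authors with HOMER, per the file headers. The log2 fold changes and p-values of the authors' deposited comparisons were made with DESeq2, per the submitters' processing notes, and were used only where named as the authors'.

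The members, the gene lists and the alternatives were chosen with earlier results of these data known. For each experiment limma 3.58.1 in R 4.3.3, with trend and robust moderation, was fitted to log2(TPM + 1) over all its groups. Genes needed 1 TPM in at least 2 libraries, and p-values were adjusted by Benjamini-Hochberg over all genes tested in a contrast, at 0.05. The fit was repeated on median-ratio-scaled TPM, and a member counted only where both fits called it with the same sign. Fold changes on this scale understate changes of low genes. There were 26 contrasts. The fit was tested on simulated data. Labels group the samples and do not state that replicate numbers pair them, so the main fit held no pairing. Whole reads were recovered from TPM and exon length (100% of values within 0.1 read) and used for the limma voom alternative. For experiment 1 the 4 hr control has 1 library, and 1 column that matched no sample was not used. Named were fixed examples of each complex, isoform pairs, up to 5 called members with the largest changes in each direction at 5 TPM or more, the called genes with the largest changes of each other list, and the targeted genes. Further members were named after their values were seen, where all members of a small group of calls are listed or levels are ranked.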

Additional observations from a re-analysis of the deposited data

How the results depend on the processing

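The number of members called changed with scaling and with the libraries used. On TPM alone it was 48 and 62 at 1 and 4 hr of lipid A in experiment 1, 41, 56 and 57 for ACBI1, BRM014 and BRDK98 at 4 hr, and 28, 42 and 22 for BRM014 against ACBI1, BRDK98 against ACBI1 and BRDK98 against BRM014. On TPM alone it was 43 at 4 hr of LPS, 57 at 4 hr in experiment 3, and in experiment 4 at 60 min 10 for lipid A, 18, 27 and 1 for ACBI1, BRM014 and BRDK98, and 62, 36 and 14 for the same 3 pairs of compounds. On median-scaled TPM alone it was 17 and 40 at 1 and 4 hr of lipid A, 31 for BRM014 at 4 hr, 38 at 4 hr of LPS, 22 in experiment 3, 38 at 60 min of lipid A and 1 for ACBI1 at 60 min. The log2 ratio of the summed level of the 4 complexes became 0.14 and 0.13 at 1 and 4 hr in experiment 1, 0.26 and 0.39 in experiment 2, 0.13 in experiment 3, and 0.18 and 0.37 at 20 and 60 min in experiment 4, from -0.31, -0.86, 0.10, -0.32, -0.70, 0.14 and -0.03 on TPM.

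Without a filter on low values, which tests more genes, the counts were 1 at 1 hr of lipid A, 7 for BRM014 against ACBI1 at 4 hr, 5 and 0 at 1 and 4 hr of LPS, and at 60 min 8 for BRM014, 11 for BRM014 against ACBI1 and 4 for BRDK98 against BRM014. Without trend or robust moderation they were 4 and 0 at 1 and 4 hr of LPS. With limma voom they were 6 at 1 hr of lipid A, 9, 8 and 7 for the compounds at 4 hr, 0 at 4 hr of LPS and 1 for BRDK98 at 20 min. Scaling within 10 bins of exon length, chosen after seeing the data, gave 7 at 1 hr of lipid A, 5 at 4 hr of LPS, and at 60 min 4 for lipid A, 3 for ACBI1, and 9, 4 and 4 for the 3 pairs of compounds. The cause of these changes was not tested. A pseudocount of 0.1 left every count within 1.5 times.

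Leaving out 1 library at a time gave 1 to 7 and 23 to 26 at 1 and 4 hr of lipid A in experiment 1, 12 to 13, 14 to 16 and 9 to 11 for ACBI1, BRM014 and BRDK98 at 4 hr, and 5 to 7, 6 to 10 and 6 to 10 for the pairs. It gave 1 to 3 and 0 to 2 for LPS, 2 to 24 and 2 to 4 for ARID1A loss, 0 to 3 for the difference of its effects, 3 to 16 in experiment 3 and 0 to 1 for PBRM1 loss. In experiment 4 it gave 0 to 3 and 0 to 2 for lipid A, 0 to 0 for ACBI1 at both times, for BRM014 at 20 min and for BRDK98 at 60 min, 0 to 1 for BRDK98 at 20 min, 4 to 59 for BRM014 at 60 min, and 3 to 62, 1 to 2 and 0 to 57 for the pairs. The single 4 hr control of experiment 1 cannot be left out. With the replicate number as a block all 26 counts stayed within 1.5 times, for example 16 members for ACBI1 at 4 hr against 18, and 14 of the 213 calls of members were lost. For each group the difference of replicate 1 from replicate 2 was taken. These differences correlated above 0.1 in 1 of 10, 1 of 10, 2 of 3 and 11 of 36 pairs of groups. The median correlations were 0.0218, 0.0205, 0.146 and -0.011 in experiments 1 to 4, which does not settle whether the numbers pair libraries.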
